A study of Mus musculus with 7 samples.

Results

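The segment described is the stretch of mouse chromosome 4 within 20 Mb of the Lck probe on either side. It was read on a 1-colour expression array in CD8 T cells. The members are the 1517 probes, of 55681 non-control probes on the array, whose mm9 midpoint in the scanner files lies between 109225643 and 149225643. Lck itself and names of ribosomal, proteasome, chaperone, respiratory-chain, solute carrier and similar families were left out, 43 of 1560 probes in the window. The members carry 887 distinct names. Of the 1517 probes, 884 name a gene, 483 name a lincRNA interval (a stretch annotated as a long non-coding RNA by its coordinates) and 150 carry only an accession or probe ID. The outermost members were a 9630013D21Rik probe at -19.90 Mb and a Tmem201 probe at 19.88 Mb. The nearest probes beyond the window were 4930522H14Rik at -20.05 Mb and Spsb1 at 20.05 Mb. Distances are from the midpoint of the Lck probe, negative towards lower coordinates.

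All 7 samples were lymph node cultures of OT-1 heterozygous, Rag-/- CD8 T cells, which carry a transgenic T cell receptor for the ovalbumin peptide SIINFEKL. Lymphocytes were cultured for 24 h with 100 nM of that peptide. The 4 WT samples have no further genotype in the labels. The 3 Lck-/- samples carry in addition a knocked-in Lck that depends on doxycycline, which was withdrawn from the diet for 7 days, and for the WT samples no doxycycline is mentioned, so withdrawal and genotype cannot be told apart. The sources used here do not give the promoter of the knocked-in Lck, the part of Lck that was deleted, the embryonic stem cell strain or the number of backcrosses. The series calls the samples biological replicates.

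Lck is the Src-family kinase that phosphorylates the T cell receptor's signalling chains. A gene that is altered in embryonic stem cells is inherited together with the DNA around it, so neighbouring genes can carry the alleles of the stem cells' strain after backcrossing to another. Array probes read transcript amount through base pairing, and a base that differs between strains under a probe can lower its signal without a change in amount. No genotype was measured here, so in a probe's signal transcript amount, transcript form and sequence match cannot be told apart.

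The signal at Lck did not follow the labels on 2 arrays. Values are log2 of the processed signal minus the array's 75th percentile, so 0 is that percentile. The only Lck probe (A_55_P2155504, chr4:129225614-129225673) read 7.44, 7.67, 7.36 and 6.04 across WT 1 to WT 4. Across Lck-/- 1 to Lck-/- 3 it read 8.02, 6.21 and 6.17. The array labelled WT 4 was thus the lowest of the 7 and the array labelled Lck-/- 1 the highest. Whether this probe lies in the deleted part, or also reads the knocked-in Lck, was not tested, so it may check nothing. The mean was 7.12 ± 0.74 (SD, n = 4) for WT as labelled and 6.80 ± 1.06 (SD, n = 3) for Lck-/-, differing by -0.32 (SE 0.55, adjusted p = 0.953 by limma). Without the arrays labelled WT 4 and Lck-/- 1 the difference was -1.29 (limma adjusted p = 0.118). Whether these 2 samples were exchanged was not tested. Every direction below is between arrays as labelled, and for the main counts, the gene lists and the probes described most fully the value without these 2 arrays is given too.

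Several probes of the segment read the arrays in the same split as Lck, and the oligos in question are shown here because probes of 1 gene disagreed with each other. Each probe is 60 bases long and bases 16 to 45 are printed, 5′ to 3′ in the sense of the transcript as the files' coordinates give it. Capitals mark the stretch that is printed for both the Stmn1 A_55_P2068663 and the Gm11223 probe, and their match runs on beyond it. The 2 Med8 probes lie 571 bases apart, the 2 Stmn1 probes 340 bases apart, and the 3 Hdac1 probes within 342 bases of each other.
Med8 A_66_P107680 (chr4:118088241-118088270, + strand): ctgcttttgtagagttgacgaacagtggag
Med8 A_55_P2054240 (chr4:118087670-118087699, + strand): gtatgcaattctgggtcttgaataaatgat
Ubxn11 A_55_P2005743 (chr4:133682535-133682564, + strand): accttcccgcccacggtctaccaggacgat
Stmn1 A_55_P2068663 (chr4:134029710-134029739, + strand): ACTGTACTTGAATGGTTAATAAACTGCACa
Stmn1 A_55_P2043862 (chr4:134029370-134029399, + strand): ctgtactggccagtgtcctttactttccct
Gm11223 A_55_P2011436 (chr4:69586244-69586273, - strand): tACTGTACTTGAATGGTTAATAAACTGCAC
Hdac1 A_66_P128384 (chr4:129193542-129193571, - strand): gaggggtctgggtctcctaggacccctttt
Hdac1 A_55_P2077608 (chr4:129193731-129193760, - strand): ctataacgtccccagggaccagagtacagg
Hdac1 A_55_P1970775 (chr4:129193389-129193418, - strand): ctagcttcctttttgagatattttcatttt
The Gm11223 probe lies outside the segment, at -59.64 Mb. Over their full length, the probe Stmn1 A_55_P2068663 and the Gm11223 probe have an identical run of 53 bases. Among the other probes printed here and the 12 with a gap of at least 1.5 described below, none shares 20 bases with another probe of the array. Coordinates are those of the files (mm9). Whether a probe lies in coding sequence or in a UTR was not analysed here.

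Of the 1517 members, 873 passed the filter, which asked for a signal well above background on 3 or more arrays, and 644 did not. Of those 873, 836 had a value on every array, 37 lacked at least 1 because the spot was marked as an outlier, and 717 were well above background on all 7 arrays. The members that passed comprised 591 probes of named genes and 199 of lincRNA intervals. Over the whole array, 46.57% to 61.06% of spots were well above background and 0 were saturated. Outlier spots were most frequent on the array labelled WT 3 (1549), followed by Lck-/- 1 (557) and Lck-/- 3 (285), against 166 to 229 on the others. Markers of CD8 T cells were well above background on all arrays, 8 of 8. Of 5 B cell markers 2 passed, Cd79a and Cd79b, both well above background on all 7 arrays, while Ms4a1 was not on any. NK cell markers passed in 10 of 10 cases, and relative to the WT level they averaged -0.64, -0.03, -0.78 and 1.38 for WT 1 to WT 4 and 0.35, 1.94 and 0.71 for Lck-/- 1 to Lck-/- 3. NK markers were therefore highest on the arrays labelled WT 4, Lck-/- 2 and Lck-/- 3.

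As a whole, the segment lay close to the array-wide level on each sample. The deviation of a probe is its value minus its mean over the 7 arrays, and the median deviation over the segment was -0.02, 0.07, -0.17 and 0.03 for WT 1 to WT 4. It was 0.09, 0.02 and -0.02 on Lck-/- 1 to Lck-/- 3. Over all probes the medians were 0.00, 0.02, -0.18 and 0.03 for WT and 0.07, 0.05 and -0.01 for Lck-/-. The array labelled WT 3 was the low one both in the segment and over all probes. In 15 bins of 2 Mb with at least 20 probes, the bin medians ran from -0.30 to -0.08 on WT 3 and from -0.02 to 0.25 on Lck-/- 1. On WT 1 they ran from -0.19 to 0.08, on WT 2 from -0.07 to 0.13 and on WT 4 from -0.06 to 0.12. On Lck-/- 2 they ran from -0.06 to 0.15 and on Lck-/- 3 from -0.15 to 0.05. Several extremes fell in the bin from 0 to 2 Mb, where 1 lincRNA interval near 0.27 Mb supplies many probes with a like order of arrays.

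**Figure D1:**
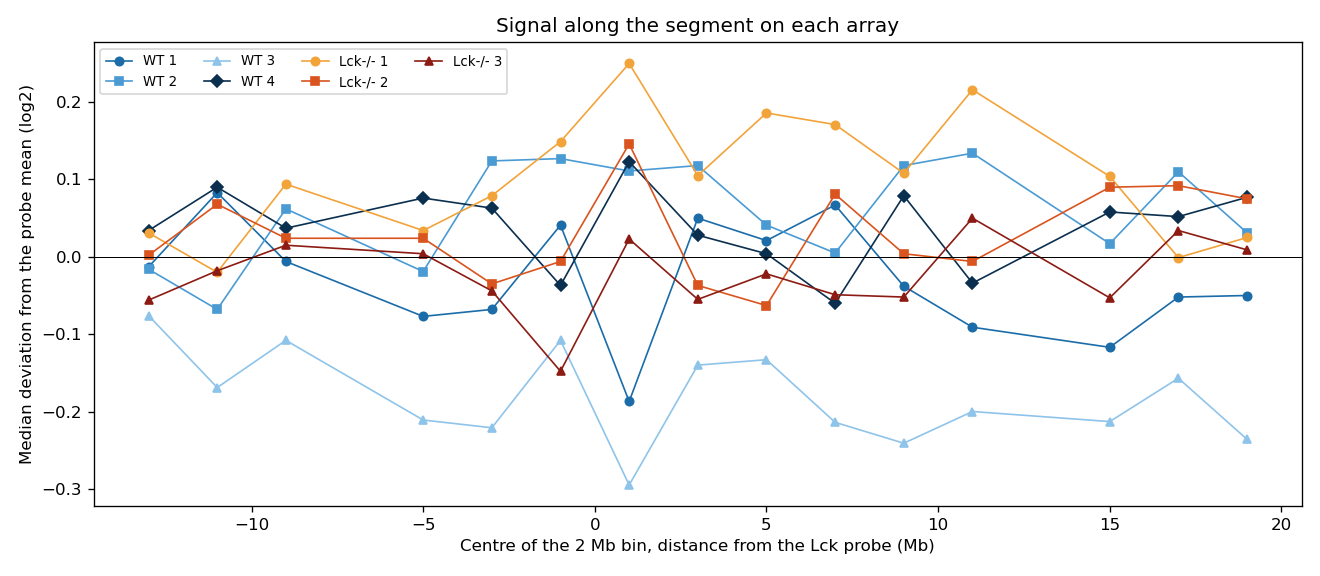
Median deviation of a probe from its mean over the 7 arrays (y axis, log2) in bins of 2 Mb by distance from the Lck probe (x axis, Mb), 1 line per array, for the 15 bins with at least 20 probes. The array labelled WT 3 lies lowest in most bins, between -0.30 and -0.08, as it does over all probes.

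Between the groups as labelled, no segment probe passed. With limma over all 29289 probes tested, 0 of 873 segment probes had an adjusted p under 0.05, against a background of 0% over all probes, and the lowest adjusted p in the segment was 0.631. At an unadjusted p under 0.05 there were 46 segment probes (5.27%), against a background of 6.82%. Of these, 36 were higher on the Lck-/- arrays (background 5.34%) and 10 lower (background 1.47%). The balance between higher and lower depended on the scaling: 78.3% were higher with the 75th percentile as reference, 57.1% with quantile normalization, 53.2% with normexp, 43.6% in the authors' deposited values and 27.5% with median centring. The median difference over the segment was 0.06 (quartiles -0.12 and 0.23), beside 0.071 over all probes and 0.075 over the rest of chromosome 4, and it was -0.15 with median centring, where all probes gave -0.13. Within slide row 1 (2 WT and 2 Lck-/- arrays) the median was 0.08 and within row 2 (2 WT and 1 Lck-/- array) 0.02.

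Probes whose 4 WT values all lay on 1 side of the 3 Lck-/- values were counted by position. There were 44 among the 836 with all values (5.26%), against a background of 7.29%. All 3 Lck-/- values were higher for 35 of them (background 5.68%) and lower for 9 (background 1.61%). The shares by distance from Lck did not fall steadily. They were 6 of 94 probes within 1 Mb, 0 of 10 from 1 to 2 Mb, 5 of 195 from 2 to 5 Mb, 15 of 198 from 5 to 10 Mb and 18 of 339 from 10 to 20 Mb. Among the bins of 2 Mb, the highest share was 12.5% (4 of 32), between -10 and -8 Mb. No probe did so in the 2 bins from -4 Mb to the Lck probe, 0 of 47 and 0 of 44. The segment's share lay below the background for both this count and the unadjusted p, but for the latter the order turned in 4 alternative settings. It was 5.84% beside 5.61% with median centring, 9.74% beside 8.95% with the replicate number as a block, 8.6% beside 6.92% without Lck-/- 1 and 9.39% beside 8.81% without WT 4. Without the arrays labelled WT 4 and Lck-/- 1, chosen for their Lck signal, 128 of 872 probes (14.7%) had an unadjusted p under 0.05, beside 9.14% over all probes, and 30.6% had no overlap, beside 25.7%.

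**Figure D2:**
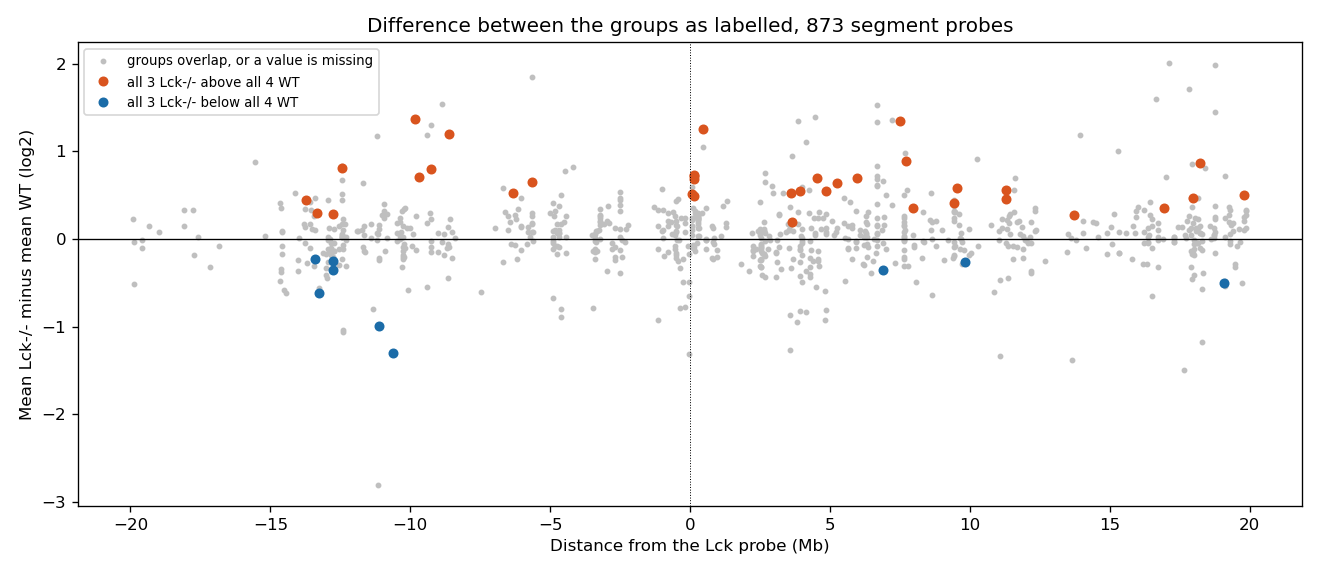
Difference between the mean of the 3 arrays labelled Lck-/- and the mean of the 4 labelled WT (y axis, log2) for the 873 tested segment probes by distance from the Lck probe (x axis, Mb). Coloured points are the 44 probes whose groups did not overlap, 35 higher and 9 lower, and they are spread over the segment.

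Next to Lck, most genes differed little between the labelled groups. The list of 18 neighbours of Lck had 17 names found among the probes, of which 15 genes passed with 28 probes. Of these probes 0 passed the adjusted threshold. At an unadjusted limma p under 0.05, 2 were higher (background 5.34%) and 1 lower (background 1.47%), and the median difference was -0.08. Without the arrays labelled WT 4 and Lck-/- 1 the median turned to 0.07. Of the 27 probes with all values, 10 had the arrays labelled WT 4, Lck-/- 2 and Lck-/- 3 apart from the others at their largest gap (background 1.68%). This split is described below. Marcksl1, a MARCKS-like actin-binding protein gene at -0.03 Mb, read 2.39, 2.31, 2.03 and 1.13 on the WT arrays and 1.32, 0.74 and -0.10 on the Lck-/- arrays. Its groups overlapped because the array labelled WT 4 lay below Lck-/- 1. The difference was -1.31 (SE 0.41, limma adjusted p = 0.651), and -1.92 without the arrays labelled WT 4 and Lck-/- 1 (limma adjusted p = 0.123). The tRNA synthetase gene Yars differed by 0.24, the karyopherin gene Kpna6 by -0.11, the chromatin subunit gene Rbbp4 by -0.23 and Txlna, a taxilin, by 0.04. With the arrays labelled WT 4 and Lck-/- 1 left out, these differences were 0.67, -0.11, -0.33 and 0.27. Another Rbbp4 probe, A_52_P424767, differed by -0.49, and by -1.02 with these 2 arrays left out (limma adjusted p = 0.281). Bsdc1, Tmem39b, Dcdc2b, Ccdc28b and 2510006D16Rik (now Tmem234) differed by -0.08, -0.09, 0.15, 0.24 and 0.15.

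The stretch between 0.15 and 0.17 Mb was picked after its values were seen. Of its 8 passed probes, 4 were higher on every Lck-/- array than on any WT array (background 5.68%). They lie on the - strand and comprise 3 probes of a lincRNA interval (between 129379637 and 129379936) and 1 probe of Khdrbs1 (A_55_P1994751, chr4:129380408-129380467), which encodes the RNA-binding protein Sam68. The first lincRNA probe, A_30_P01025732, read -2.70, -2.57, -2.74 and -2.26 on the WT arrays and -1.75, -1.89 and -2.02 on the Lck-/- arrays. The other lincRNA probes differed by 0.49 (SE 0.14) and 0.72 (SE 0.21), and the first by 0.69 (SE 0.17, limma adjusted p = 0.631). All 3 Lck-/- arrays lay above all 4 WT arrays on each of the 3 probes. The Khdrbs1 probe read -0.33, -0.90, -0.51 and 0.17 on the WT arrays and 0.19, 0.37 and 0.46 on the Lck-/- arrays, differing by 0.73 (SE 0.25, adjusted p = 0.664 by limma), and by 0.99 without the arrays labelled WT 4 and Lck-/- 1. The other Khdrbs1 probe, A_52_P574697 at chr4:129392162-129392221, read far brighter, from 4.61 to 4.97 on the WT arrays and 4.37 to 4.91 on the Lck-/- arrays, and differed by -0.13. Leaving out any 1 array kept the first lincRNA probe between 0.62 and 0.79, and all 4 probes stayed positive under the other scalings, from 0.16 to 0.73. A second lincRNA interval just beyond, with probes from 129381000 to 129389411, had overlapping groups on its 3 probes, which differed by 0.30 (SE 0.19), 0.32 (SE 0.25) and 0.25 (SE 0.32). The first 4 probes lie within 1 kb on the same strand and are not counted as separate observations, since whether they read the same transcript was not tested.

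Larger differences with no overlap lay further out, and none passed over all probes. Bai2 (now Adgrb2), an adhesion G protein-coupled receptor gene at 0.47 Mb, read -4.33, -4.26, -4.93 and -3.53 on the WT arrays and -3.35, -2.85 and -2.83 on the Lck-/- arrays. It was dim, well above background on 2 of 4 WT arrays and 3 of 3 Lck-/- arrays. The difference was 1.26 (SE 0.32, limma adjusted p = 0.631) and 1.67 without the arrays labelled WT 4 and Lck-/- 1, but only 0.40 with normexp and 0.36 in the authors' deposited values. Another Bai2 probe differed by 1.05 (SE 0.49) with overlap. The zinc finger gene Zfp69 differed by 1.20 (SE 0.41), 2810405F17Rik by 0.89 (SE 0.22), the zinc finger factor gene Hivep3 by 0.71 (SE 0.30) and the sperm ion channel gene Catsper4 by 0.69 (SE 0.25). Zfp69 and Hivep3 were well above background on only 2 of 4 WT arrays, so their WT means are partly bounds. D4Wsu53e (now Rsrp1), 9530077C14Rik and the peptidylarginine deiminase gene Padi2 differed by 0.64, 0.58 and 0.56. For 1700029M20Rik no WT array was well above background, and the signal was at least 1.61-fold higher on the Lck-/- arrays, taking per WT array the higher of the probe's own value and the lowest signal well above background. The kinase gene Mast2 was lower, at 3.43, 3.17, 3.11 and 2.86 on the WT arrays and 2.49, 2.61 and 2.48 on the Lck-/- arrays, differing by -0.62 (SE 0.17, adjusted p = 0.651 by limma), and by -0.69 without the arrays labelled WT 4 and Lck-/- 1.

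Cell cycle genes of the segment gave more negative than positive differences under every scaling tried. So did the lists of Lck neighbours, chromatin regulators and RNA-binding and splicing genes. Of 19 listed cell cycle names 17 were found among the probes, and all 17 passed, with 26 probes. Of these probes 8 had a positive and 18 a negative difference, with a median of -0.20, beside 0.071 over all probes. None passed the adjusted threshold, and 3 of 26 probes had an unadjusted p under 0.05, all lower, where the background is 1.47%. These are 1 Cdc20 and 2 Kif2c probes. The list was drawn up with earlier results of these data known, so its share beside the background is only a description. Of its 25 probes with all values, 4 had the split of arrays described below (background 1.68%). Without the arrays labelled WT 4 and Lck-/- 1 the list's median was -0.41. Cdc20, the activator of the anaphase-promoting complex, read 5.6, 4.21, 5.40 and 4.22 on the WT arrays and 3.83, 3.92 and 3.84 on the Lck-/- arrays. The WT arrays fell into a high and a low pair, with all Lck-/- arrays below both, and the difference was -0.99 (SE 0.37, limma adjusted p = 0.686), or -1.19 without the arrays labelled WT 4 and Lck-/- 1. The mitotic kinesin gene Kif2c differed by -1.04 (SE 0.39) and -1.06 (SE 0.41) on its 2 probes, with overlap. Cdca8, a chromosomal passenger subunit, differed by -0.80 (SE 0.35) and -0.89 (SE 0.39), and the centriole gene Stil by -0.58 (SE 0.25).

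Of 29 listed names of immune receptors and signalling genes, 26 were found among the probes. Of these genes 23 passed the filter with 34 probes, and 0 passed the adjusted threshold. At an unadjusted limma p under 0.05, 1 probe was higher (background 5.34%) and 1 lower (background 1.47%). With the 75th percentile as reference 24 probes had a positive and 10 a negative difference (median 0.09), with median centring 7 positive and 27 negative (median -0.11). The median was 0.05 without the arrays labelled WT 4 and Lck-/- 1. Pik3cd, the p110-delta subunit of PI 3-kinase, read 6.12, 5.87, 5.77 and 6.20 on the WT arrays and 6.92, 6.26 and 6.31 on the Lck-/- arrays, differing by 0.51 (SE 0.21, adjusted p = 0.725 by limma), and by 0.36 without the arrays labelled WT 4 and Lck-/- 1. The 2 other Pik3cd probes that passed differed by 0.20 and 0.25 with overlap. The phosphatase gene Ptprf differed by -0.80 (SE 0.29), the surface glycoprotein gene Cd52 by 0.24 (SE 0.18) and the granulocyte factor receptor gene Csf3r by 0.05. The complement gene C1qc, expressed by macrophages, was dim, at -6.26, -6.31, -6.94 and -5.91 on the WT arrays and -6.79, -3.79 and -4.42 on the Lck-/- arrays. Relative to the WT level, macrophage and dendritic cell markers averaged -0.49, 0.76, -0.36 and -0.03 for WT 1 to WT 4 and 0.07, 0.72 and 0.60 for Lck-/- 1 to Lck-/- 3. Their part in the C1qc values was not tested. Fgr, a Src-family kinase like Lck, read -4.82, -4.19, -4.14 and -2.70 on the WT arrays and -4.43, -2.66 and -3.22 on the Lck-/- arrays.

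The remaining lists had medians near 0 with the 75th percentile as reference. Transcription factors passed with 15 of 22 genes and 23 probes and had a median of 0.01. Casz1, a zinc finger factor, had no overlap at -0.50 (SE 0.17), and its 3 other probes differed by -0.54 (SE 0.24), -0.48 (SE 0.49) and 0.23 (SE 0.21). Runx3, a factor of CD8 lineage identity, differed by 0.47 (SE 0.26) and 0.18 (SE 0.15), while Nfyc and Foxj3 differed by -0.18 and -0.08. Chromatin regulators passed with 14 of 14 genes and 24 probes and a median of -0.04, and RNA-binding and splicing genes with 15 of 21 genes, 34 probes and a median of -0.07. Metabolic enzymes passed with 23 of 25 genes and 32 probes and a median of 0.01, with 0 of 32 at an unadjusted p under 0.05 (background 6.82%). The medians of these 4 lists without the arrays labelled WT 4 and Lck-/- 1 were 0.02, -0.05, -0.04 and -0.06. Of the listed names in the same order, 20, 14, 15 and 25 were found among the probes, and the rest could not pass. The spermidine synthase gene Srm, at 7.45 ± 0.15 (SD, n = 4) on the WT arrays and 7.70 ± 0.48 (SD, n = 3) on the Lck-/- arrays, differed by 0.25. Sdhb, a subunit of succinate dehydrogenase, differed by 0.12, and Ybx1, a cold shock domain protein gene, by -0.18.

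Several of the widest ranges in the segment followed another split of the arrays. For each probe the 7 values were ordered and the largest gap between neighbours was taken, a description chosen after the data were seen and given without a test. A largest gap of at least 1.5 occurred in 28 of 836 segment probes. In 12 of these 28 (42.9%) the arrays labelled WT 4, Lck-/- 2 and Lck-/- 3 lay together on 1 side and the others on the other side, which is also how the Lck probe's largest gap, 1.14, divided them. The same held for 2 of 29 such probes (6.9%) on the rest of chromosome 4, for 45 of 668 (6.74%) elsewhere and for 59 of 725 (8.14%) over all probes. As a share of all probes with values on every array, it was 12 of 836 in the segment (1.44%), against a background of 0.212% (59 of 27895). The 12 probes belong to 11 genes between -11.14 and 18.75 Mb, 7 lower and 5 higher on those 3 arrays. All were well above background on the bright side, and 5 were so on all 7 arrays. With normexp 5 segment probes had such a gap and split, as did 5 in the authors' deposited values. With a gap of at least 1 the counts were 14 of 75 in the segment (18.7%) and 70 of 1878 (3.73%) on other chromosomes.

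**Figure D3:**
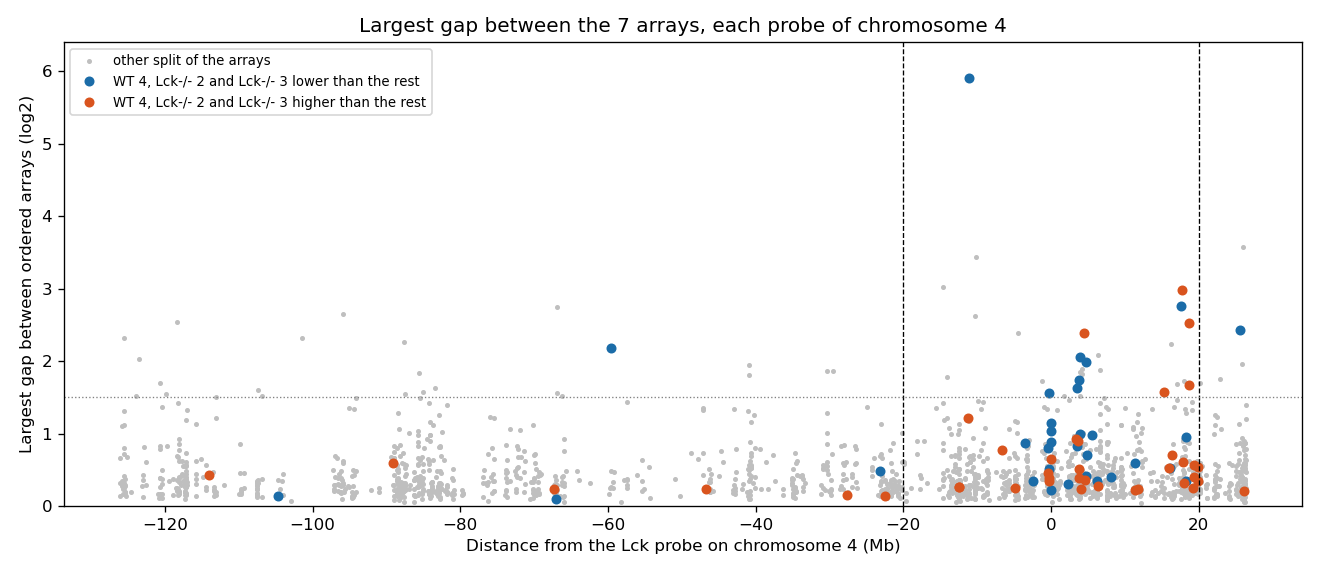
Largest gap between the ordered values of the 7 arrays (y axis, log2) for each probe of chromosome 4 by distance from the Lck probe (x axis, Mb). Dashed lines bound the segment, the dotted line marks a gap of 1.5, and coloured points are probes that divide WT 4, Lck-/- 2 and Lck-/- 3 from the rest. Of these, 55 are members and 12 lie outside the dashed lines. The other coloured points inside are Lck and probes of Eif2b3 and Slc25a33, left out by name.

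Med8, a subunit of the Mediator complex, had the widest gap. Its probe A_66_P107680 read -0.01, -0.59, -0.55 and -6.50 for WT 1 to WT 4 and -0.24, -6.72 and -7.19 for Lck-/- 1 to Lck-/- 3. The 4 bright arrays were well above background and the 3 dim ones were not. The other Med8 probe, A_55_P2054240, read 5.30, 5.23, 4.83 and 5.66 on the WT arrays and 4.94, 5.54 and 5.45 on the Lck-/- arrays, and did not show the gap. With the labels as given, the first probe differed by -2.81 (SE 2.10, limma adjusted p = 0.847). Without the arrays labelled WT 4 and Lck-/- 1 the fitted value was -6.57 (limma adjusted p = 0.00519). Neither remaining Lck-/- array was well above background, so the signal there was at least 88.5-fold lower than on WT 1 to WT 3, and the probe passed the filter only through its bright arrays.

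Stmn1, which encodes the microtubule-destabilising protein stathmin, and Hdac1, a histone deacetylase next to Lck, kept part of their signal on the low arrays. The Stmn1 probe A_55_P2068663 read 7.28, 6.72, 6.68 and 4.70 on the WT arrays and 7.54, 4.25 and 4.48 on the Lck-/- arrays. The second Stmn1 probe, A_55_P2043862, read 6.44, 5.71, 6.13 and 5.29 and then 6.06, 4.84 and 4.99, with the same 3 arrays lowest but a gap of only 0.42. The Gm11223 probe with the 53-base match read 7.29, 6.78, 6.82 and 4.60 and then 7.53, 4.12 and 4.37, close to the Stmn1 probe on every array, and which transcript gave this signal cannot be told apart. For Hdac1, A_66_P128384 read 5.16, 5.01, 5.11 and 3.54 on the WT arrays and 4.81, 3.77 and 3.57 on the Lck-/- arrays. A_55_P2077608 showed the same split at 3.01, 2.61, 2.86 and 1.57 and then 2.71, 1.72 and 1.62. The brightest Hdac1 probe, A_55_P1970775, read 6.49, 6.45, 6.65 and 6.24 on the WT arrays and 6.28 and 6.3 on Lck-/- 2 and Lck-/- 3, with an outlier spot on Lck-/- 1. These too were its lowest values, but all 6 spanned only 6.24 to 6.65, while the 2 other probes had gaps of 1.04 and 0.89.

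Ubxn11, a UBX domain protein gene, went the opposite way, at 1.84, 1.79, 1.83 and 4.68 on the WT arrays and 2.29, 4.71 and 4.78 on the Lck-/- arrays. The zinc finger gene Zfp534 read -5.55, -4.06, -5.17 and -1.08 and then -5.03, -0.72 and -1.01 on A_55_P2169938. Its other probe, A_55_P2159665, read between 2.30 and 2.96 on all 7 arrays. Both Masp2 probes that passed, for a protease of the lectin complement pathway, were higher on the same 3 arrays: A_55_P2185504 read -4.62, -4.14, -4.89 and -1.53 and then -4.12, -1.31 and -1.60. The remaining Masp2 probe was not well above background on any array. The retinal reductase gene Dhrs3 read -2.90, -2.92, -2.47 and -0.80 on the WT arrays and -2.52, -0.41 and -0.89 on the Lck-/- arrays.

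Among the lower probes, Sfn, which encodes 14-3-3 sigma, read -0.05, 0.07, -0.04 and -2.10 on the WT arrays and 0.45, -2.28 and -2.23 on the Lck-/- arrays. Zbtb8a, a zinc finger gene at -0.19 Mb, read -0.57, -0.46, -0.94 and -3.11 and then -0.64, -3.01 and -2.51. Gm13152 (now Zfp982) read -2.29, -2.27, -2.72 and -6.38 and then -2.70, -6.56 and -5.48. Trnp1 read -3.47, -2.23, -2.54 and -6.34 and then -2.0, -6.56 and -5.22, and its other probe was well above background on only 2 arrays. The kinase gene Map3k6 read -2.73, -3.03, -2.66 and -4.68 and then -2.73, -6.24 and -4.66 on A_55_P2106039, and its other probe, A_51_P170807, followed with a gap of 0.82. In each of these 5 genes the array labelled WT 4 lay with Lck-/- 2 and Lck-/- 3, and Lck-/- 1 lay with WT 1 to WT 3. Their probes were picked for this split, so the shared order is built in.

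**Figure D4:**
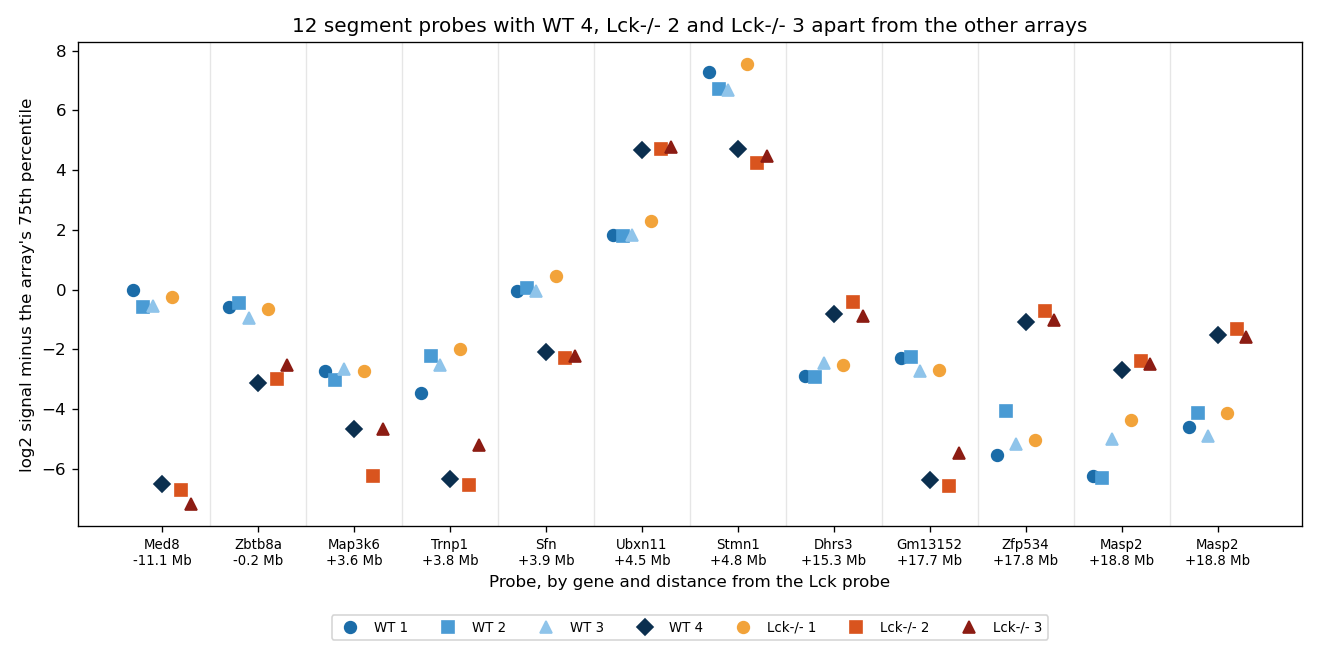
Signal of the 12 segment probes with the arrays labelled WT 4, Lck-/- 2 and Lck-/- 3 on the same side of a gap of at least 1.5 (y axis, log2 signal minus the array's 75th percentile), by gene and distance from the Lck probe (x axis), 1 point per array. The 3 arrays lie below the others for 7 probes and above them for 5, among them Med8 at -6.50 to -7.19 against -0.59 to -0.01.

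Counted at any gap size, the split was found in 55 of 836 segment probes (6.58%), against a background of 1.68% over all probes and 1.28% on the rest of chromosome 4. On single other chromosomes the share ran from 0.936% to 2.75%. Of the 55 probes, 26 were lower and 29 higher on the arrays labelled WT 4, Lck-/- 2 and Lck-/- 3, and they carry 47 names. They lay between -11.19 and 19.87 Mb, and the 4 bins beyond -12 Mb, with 7, 5, 16 and 67 probes, held none. The bins from -10 to -8 Mb, with 32 probes, and from 12 to 14 Mb, with 19, held none either. Eif2b3 probes left out by name showed the split at -12.49 Mb, with gaps of 0.27 and 0.26, so no edge was located. By distance from Lck the 55 members comprised 10 of 94 within 1 Mb, 0 of 10 from 1 to 2 Mb, 19 of 195 from 2 to 5 Mb, 5 of 198 from 5 to 10 Mb and 21 of 339 from 10 to 20 Mb. The sugar isomerase gene Hyi, at -11.19 Mb and close to Med8, was higher on the 3 arrays, at 3.87, 4.06 and 4.02 against 1.60 to 2.65. The chloride channel gene Clic4 was lower, at 4.08, 3.94 and 4.01 against 5.07 to 5.33, and Cap1, an actin regulator, was higher, at 5.59, 5.85 and 5.61 against 4.26 to 4.83. Both Nudc probes and both Zbtb8os probes were higher with gaps of 0.34 to 0.51, while the Iqcc probes went in opposite directions, with A_55_P1966714 higher and A_55_P2158458 lower. NK markers were also higher on these 3 arrays, although only 4 of 9 with all values had exactly these as the 3 highest, and their part in the split was not tested.

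**Figure D5:**
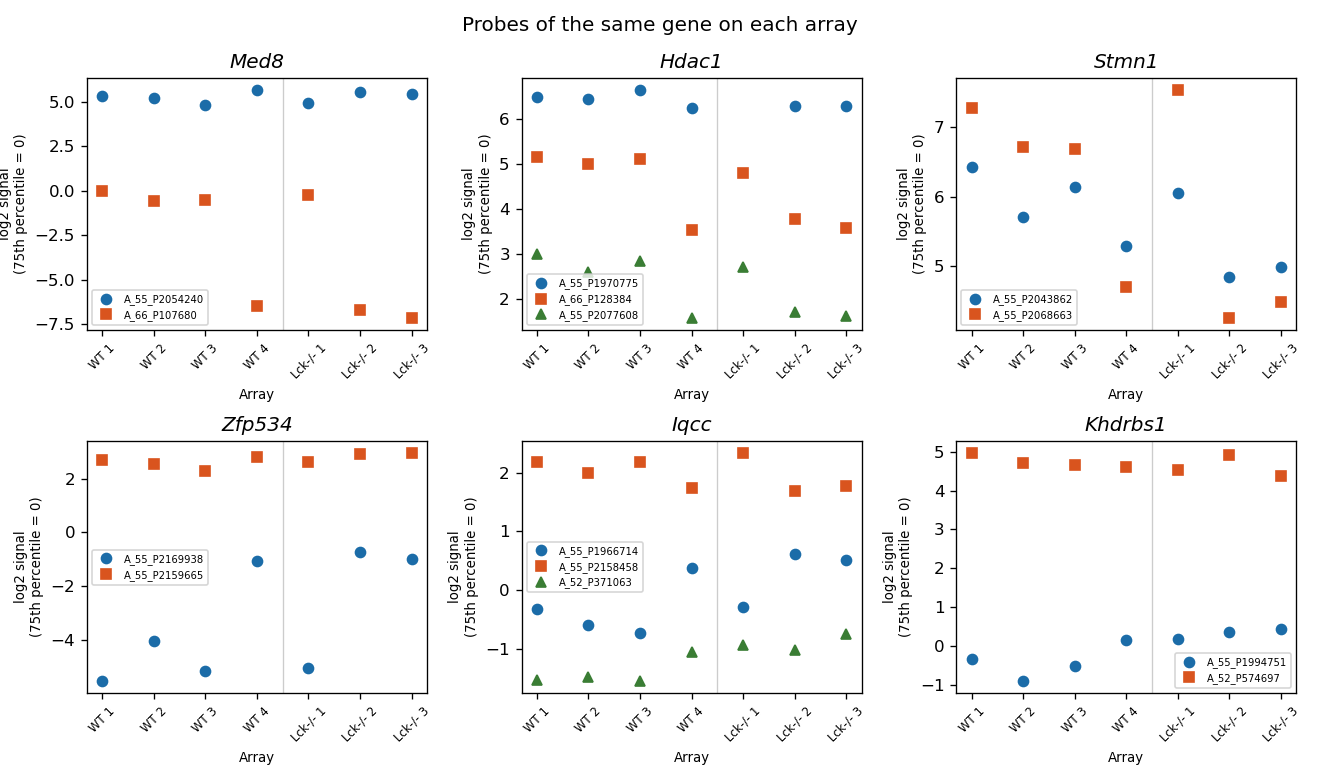
Signal of each probe of Med8, Hdac1, Stmn1, Zfp534, Iqcc and Khdrbs1 (y axis, log2 signal minus the array's 75th percentile) on each of the 7 arrays (x axis), 1 marker per probe and no error bars. For Med8 and Zfp534, 1 probe divides the arrays and the other does not, and for Hdac1 the brightest probe stays between 6.24 and 6.65.

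Across the 7 arrays, the segment probes most like the Lck probe were Sfn (Pearson r = 0.985), Clic4 (0.977), a lincRNA interval probe at 3.99 Mb (0.976), Stmn1 (0.967) and Zbtb8a (0.963). The least alike were Zbtb8os (-0.964), Spen, a transcriptional repressor gene (-0.957), and Nudc, a dynein-associated gene (-0.953). These describe 836 probes over 7 arrays that share their cell make-up. All 8 of these probes are among the 55 of the split. Both r and the split rest on the Lck probe's values, so this overlap is partly built in.

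With the arrays labelled WT 4 and Lck-/- 1 left out, 8 of 872 segment probes passed the adjusted threshold of limma (0.917%), against a background of 0.161% (47 of 29188), 4 higher and 4 lower. Lower were Med8, Sfn, Gm13152 and Stmn1, and higher were Ubxn11, Masp2, Gm13138 and a lincRNA interval probe at 17.12 Mb. On the rest of chromosome 4, 2 probes passed, Gm11223 and 5830444B04Rik, the latter at 25.56 Mb with -0.93, -0.71, -1.73 and -4.17 on the WT arrays and -1.23, -6.61 and -5.61 on the Lck-/- arrays. Gm13138, at 16.66 Mb, read -4.07, -4.35, -4.44 and -1.83 on the WT arrays and -2.70, -1.89 and -1.64 on the Lck-/- arrays. Gm13152 was at least 12.1-fold lower, and Masp2 and the lincRNA probe at least 8.54-fold and 10.6-fold higher, since their dim group was not well above background on any array. These probes and Med8 passed the filter only through arrays outside their dim group. Their calls thus rest partly on the filter, and the count is given as a description. Since the 2 arrays were picked by their Lck signal, the calls are not independent of the split described above.

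A few members with wide ranges stood out on 1 or 2 arrays. Cldn19, a tight junction gene, read -0.39 on the array labelled WT 4 against -5.53 to -3.02 on the others. Rimkla, an amino acid ligase gene, read 0.20 on WT 2 against -4.67 to -3.25. Lepre1, Sepn1 and Klhdc7a read 4.70, 5.22 and 5.37 on WT 3, their highest value, next to 2.41, 3.87 and 4.08 on Lck-/- 3, with an outlier spot on Lck-/- 1 and at most 3.1 on the other arrays. These 3 arrays also had the most outlier spots over the whole array, and Cd4, a marker of CD4 T cells, had the same pattern, 5.47 on WT 3, 3.67 on Lck-/- 3, an outlier spot on Lck-/- 1 and 1.69 to 2.05 on the others. The part of spot quality or of CD4 T cells in these values was not tested.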

How the data were processed

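Per the labels' protocols, RNA with an integrity number above 8 was used and 50 ng was labelled with Cy3. Per the file headers, the authors' scanner files come from Agilent Feature Extraction 10.7.3.1 on an mm9 design and give spot intensity. The log2 values in the authors' deposited table correlated at 0.9994 to 0.9998 with log2 median spot intensity (column medians 6.57 to 6.61). The sources used here do not give its normalization, and it served only as an alternative. Limma is listed in the submitters' processing notes with no version.

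Processed intensity was taken to log2 and centred on each array's 75th percentile (353.6 to 615.4 before log2), outlier spots were left out, spots of a probe were averaged, and probes well above background on at least 3 of 7 arrays (29289) were tested with limma 3.58.1 in R 4.3.3 (lmFit, eBayes, Benjamini-Hochberg, two-sided, threshold 0.05). On simulated data over 27895 probes, 200 of 200 probes raised by 2 were recovered with 7 false calls. There each probe's SD was capped at the median SD and the noise was independent. The recovery thus checks the code and does not give the power in these data. Of the 884 named-gene probes, RefSeq (GRCm38.p6, names only) matched 761 through an accession, 88 through the symbol and 12 through a synonym, leaving 23 under their old name. Strand was read from coordinate order, which fitted RefSeq for 99.6% of 21870 probes. The number of arrays limits precision. The slide row was read from the names of the scans and not from the labels, and all arrays were taken to be on 1 slide.

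The members and gene lists were chosen with earlier results of these data known. The rule for naming probes took the 8 nearest Lck on each side, the 12 named genes with the largest difference and no overlap, the 8 with the largest range, from each list up to 4 without overlap and the 2 brightest, and the probes most and least like Lck. Other probes named, and the gap of 1.5, were chosen after their values were seen.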

Additional observations from a re-analysis of the deposited data

Results flagged for a closer look

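Among 49 named probes with 4 WT values, not counting those named only for likeness to Lck, 7 had 1 WT array far from the other 3 by Dixon's test at the 95% level, which chance does for about 1 in 20 groups. That rate does not hold for probes named for their range or their likeness to Lck, such as Med8 and Gm13152. Of these, 6 were on the array labelled WT 4. The Zbtb8os probe A_66_P137152 read 5.33 there, Yars 0.19, Med8 A_66_P107680 -6.50, Gm13152 -6.38, Iqcc A_52_P371063 -1.05 and Sdhb 6.57. The Ybx1 probe A_55_P2044045 read 7.60 on the array labelled WT 1.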

How the results depend on the processing

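No segment probe passed the adjusted threshold under any alternative that kept both arrays whose Lck signal goes against their label, and 8 did with the arrays labelled WT 4 and Lck-/- 1 left out, a setting added after the data were seen. There, 128 probes had an unadjusted p under 0.05 and 258 had no overlap (30.6%, beside 25.7% over all probes). The first of these counts, 46, became 72 with no background filter (4.75%, beside 5.1% over all probes), 28 within 10 Mb, 30 with 1 probe per gene, and 37 to 82 when 1 array was left out. It was highest without WT 4 (82, 9.39%, beside 8.81% over all probes) and without Lck-/- 1 (75, 8.6%, beside 6.92%). The count without overlap, 44, became 74 with no filter (5.01%, beside 6.27% over all probes), 26 within 10 Mb, 29 with 1 probe per gene, and 58 to 121 when 1 array was left out, where smaller groups overlap less: the shares were 6.93% to 14.4%, each below that over all probes (9.5% to 15.8%). For both counts, fewer probes entered within 10 Mb and with 1 probe per gene, and no share over all probes is given there. The median difference, 0.06, was -0.15 with median centring (-0.13 over all probes) and 0.00 to 0.08 when 1 array was left out. The 12 probes with a gap of at least 1.5 were 5 with normexp, 5 in the authors' deposited values, 5 among probes well above background on all 7 arrays, 6 within 10 Mb, and 55 at any gap size. The share over all probes is given only for the last of these, 6.58% beside 1.68%. Whether the segment's share stays above that over all probes in the other settings was not tested. Of 50 named probes, not counting those named only for likeness to Lck, 2 passed in 1 setting, Med8 (fitted -6.57) and Gm13152 (fitted -3.59). Both passed without these 2 arrays and were dim on every Lck-/- array left, so their fold has only a bound. Among the probes most like Lck, Sfn and Stmn1 A_55_P2068663 passed there too (limma adjusted p = 0.0259 and 0.0435), both well above background on all 7 arrays. Over 886 values of the 50 probes in 18 alternatives, 68 had another sign than the main value, none of them called in either.

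Same-numbered WT and Lck-/- arrays had deviations that correlated at 0.04, 0.01 and -0.02, so replicate numbers were not read as pairs. With the replicate number as a block, 85 segment probes (9.74%, beside 8.95% over all probes) had an unadjusted p under 0.05 and 0 passed the adjusted threshold. With the slide row as a block, 50 did (5.73%, beside 7.62% over all probes) and 0 passed. Dim probes limit the folds, since below background a probe has only a bound.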
